A study of Mus musculus with 19 samples.

Results

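Upstream open reading frames (uORFs) are short reading frames that begin and end in the leader of an mRNA, ahead of the annotated coding sequence. A scanning ribosome that starts at a uORF usually terminates before it reaches the coding start, so uORFs are best known as brakes on the protein made from their own mRNA. In the stress response genes, where uORFs have been studied most, the brake eases when the initiator complex becomes scarce. An ATG uORF starts at the canonical start codon, and a near-cognate uORF starts at a codon that differs from ATG by a single base.

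The uORFs described here are all rows with ORF type uORF and start codon ATG in both deposited lists of translated non-annotated reading frames, 598 of 2997 listed frames. They lie on 551 host genes, all of them protein-coding, on 20 chromosomes. In 3 cases the same frame is listed under 2 overlapping hosts (Shld3 and Trappc13, Gm49361 and Lats2, Mkks and RP23-199B10.2), so the 598 are 595 distinct frames. One list holds frames that the authors found larger in Mettl5 KO cells (217 ATG uORFs) and the other those larger in SCR cells (381 ATG uORFs). The per-genotype TPM values, the threshold and the assay behind these lists (footprints or RNA) are not given in the sources used here. The study compared B16-F10 cells, a mouse melanoma line of C57BL/6 origin, with Mettl5 knocked out (KO) against the same line with a scrambled control (SCR). METTL5 is a methyltransferase of the small subunit rRNA and needs its partner TRMT112. Each genotype had 2 ribosome footprint libraries and 2 input RNA libraries, and all footprints came from cells given cycloheximide, which stalls elongating ribosomes, before lysis. The count columns are named POOL and SCR, and POOL was taken as KO by elimination. The labels do not say whether KO cells were a clone or a mixture, and nothing says that replicates came from separate cultures, so p-values measure the spread between these libraries, which may be technical. Tumour single-cell and T-cell receptor libraries of the series are not used here.

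Start codons with their surroundings are shown first, since the bases around an ATG are known to set how often a scanning ribosome stops there. Of 598 uORFs, 482 have a host with a RefSeq promoter window (GRCm38.p6, 250 bases before to 50 after the gene start), and the translated frame matched such a window at 1 genomic start in 88, of which 2 in Epn2 share a start. Each line below begins 9 bases before the ATG, which is in capitals, and runs 5′ to 3′ on the gene's strand. The sequences are RefSeq's, and the coordinates are of GRCm38.p6 and cover the bases shown.
Ube2k, chr5:65537264-65537293, + strand: gtggtgcgcATGcgcggacccggcgccatt
Ppm1b, chr17:84958020-84958049, + strand: cgctgctcaATGgcggaaaagccgctggtg
Snx17, chr5:31193300-31193329, + strand: cccaccaaaATGgcgagctgggctgcggag
Mrpl51, chr6:125192212-125192241, + strand: aggcccaaaATGgctcctcttactgtcact
Tmem94, chr11:115765452-115765481, + strand: acaacggacATGgctgcggcccctggaggc
Srebf2, chr15:82147261-82147290, + strand: agctcaaacATGgcggcggttggcacgggg
Eif5, chr12:111538090-111538119, + strand: tcgacgtgcATGcgagccaatgacaagaga
Asns, chr6:7693210-7693239, - strand: agccacatgATGaaacttcccgcacgcgtt
Slc39a7, chr17:34031642-34031671, - strand: ggcgccgccATGttggtaaaggtatcgggg
Atp5c1, chr2:10080383-10080412, - strand: ggctccaccATGttctcgcgggcgagcgtt
Counting the A of ATG as position 1, a purine at -3 and a G at 4 mark a strong context. A purine stood at -3 in 49 of 88 uORFs (55.7%, exact 95% binomial interval 44.7 to 66.3), against 54.1% of 116813 ATGs anywhere in the RefSeq windows. A G stood at 4 in 49 of 88 (55.7%, interval 44.7 to 66.3), against 28.1% of those ATGs. Both held in 29 uORFs and neither in 19, and the Ube2k and Eif5 starts, which carry many footprints, are among those with neither. Of 79 near-cognate uORFs matched in the same way, 75.9% had a purine at -3 and 46.8% a G at 4. The 88 uORFs are those that lie near a RefSeq gene start and do not sample all members. Only 29 of the 88 matched over their whole length. The others matched only over the codons within the window, such as 7 of 38 in Ube2k. The window ATGs include any in the 250 bases before the gene start, in any frame, while 54 of the 88 uORF starts lie at or after it. The part of base composition in these differences was not tested.

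ATG uORFs were short and stood in the SCR-larger list more often than in the KO-larger list. The KO-larger list held 36.3% of them (217 of 598, exact 95% interval 32.4 to 40.3), against 46.1% of all 2997 listed frames, 27.1% of 631 near-cognate uORFs (interval 23.7 to 30.7) and 36.1% of 144 ATG uORFs that overlap the coding sequence. The share over all frames is raised by 776 ATG frames classed as neither upstream of, downstream of nor within a coding sequence. Of these, 72.6% stood in the KO-larger list. It held 45.9% of 183 downstream and 54.4% of 103 internal ATG frames. The median length was 19 codons in the KO-larger list (interval of the median 17 to 24) and 25 codons in the SCR-larger list (23 to 28), and both lists started at 8 codons. The longest had 128 codons in the KO-larger list and 156 in the SCR-larger list. Frames of 8 to 11 codons made up 44 of 217 in the KO-larger list (20.3%) and 46 of 381 in the SCR-larger list (12.1%). Near-cognate uORFs had a median of 29 codons and ATG uORFs that overlap the coding sequence 49. These intervals cover the spread over uORFs and not between libraries, and the lengths were not tested.

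**Figure D1:**
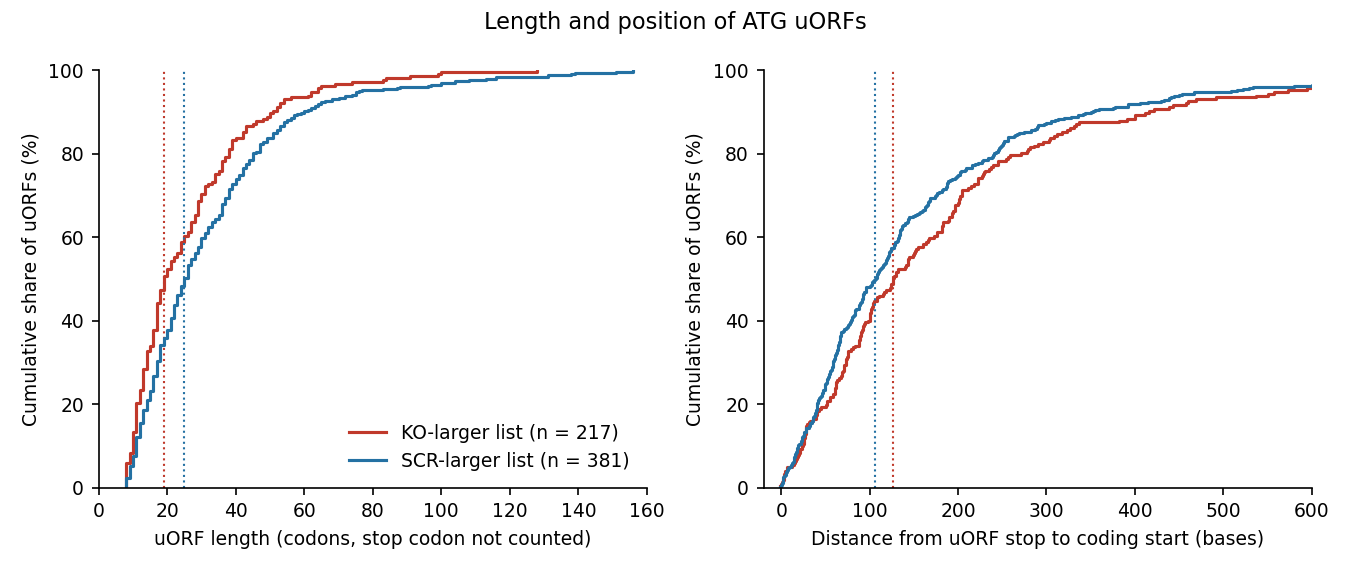
Cumulative share of ATG uORFs by length in codons (left) and by distance in bases from the uORF stop to the coding start (right, cut at 600 bases), for the KO-larger list (red, n = 217) and the SCR-larger list (blue, n = 381); dotted lines mark the medians. The KO-larger curve lies above the SCR-larger curve for length (medians 19 and 25 codons) and mostly below it for distance (medians 126 and 106 bases).

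Most uORFs ended well ahead of the coding start. The distance from the uORF stop to the coding start had a median of 126 bases in the KO-larger list (interval 103 to 152) and 106 in the SCR-larger list (91 to 121), with a highest value of 1629. In 5 uORFs the stop abutted or shared a base with the coding start. One of them is the uORF of Slc39a7, the zinc transporter ZIP7 that releases zinc from the endoplasmic reticulum. This uORF starts at the first base of the listed transcript and shares 1 base with the coding start. In the matched RefSeq window its ATG lies 28 bases after the gene start. The 8-codon uORF of Cenpq, a centromere protein gene, ends directly before the coding start. The median start lay 143 bases from the 5′ end of the transcript in the KO-larger list and 105 in the SCR-larger list. Of all 598, 126 (21.1%) were spliced from more than 1 exon.

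Ribosomes in a translated frame advance by codons, so the P-sites of footprints (the position of the ribosome's peptidyl site) gather in 1 of the 3 frames. The deposited P-site counts are sums over all libraries: a single total of 85772612 P-sites lies behind every RPKM of both lists, so no uORF has a value per genotype or per library. The median uORF had 30 P-sites in its own frame (frame 0) in the KO-larger list and 43 in the SCR-larger list, and 123 uORFs (20.6%) had fewer than 20. The 10 uORFs of most P-sites held 22.8% of all. The median share of P-sites in frame 0 was 77.1% in the KO-larger list and 77.8% in the SCR-larger list, against 66.7% for near-cognate uORFs and 61.9% for ATG uORFs that overlap the coding sequence. The frame caller selects on this share, so it is a description. The largest adjusted p for translation in the authors' deposited table was 0.0491 among the members.

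In 72 uORFs over 90% of P-sites were in frame, and in 25 fewer than 50% were. The lowest share belonged to Eif5, which makes the initiation factor eIF5 and is known to be held down by eIF5 itself through its leader. In the authors' deposited table its 108-codon uORF had 771 of 3634 P-sites in frame 0 (21.2%, exact 95% interval 19.9 to 22.6), 2553 in frame 1 and 310 in frame 2. In the same table of the authors, the 64-codon uORF of Eif1a, an initiation factor eIF1A gene, had 551 of 1647 in frame 0 (33.5%, interval 31.2 to 35.8) and 955 in frame 1. The authors' deposited table gives the 34-codon uORF of Ppp1r15a (GADD34, the stress-induced subunit of the eIF2 phosphatase) 21 of 61 in frame 0 (34.4%, interval 22.7 to 47.7) and 34 in frame 2. Of the 25 uORFs with low shares, 13 (52.0%) share bases out of frame with another non-annotated frame of the authors' frame dictionary, Eif5 with a frame that overlaps its coding sequence. Of the other 573, 73 (12.7%) do so. These intervals cover counting error only.

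**Figure D2:**
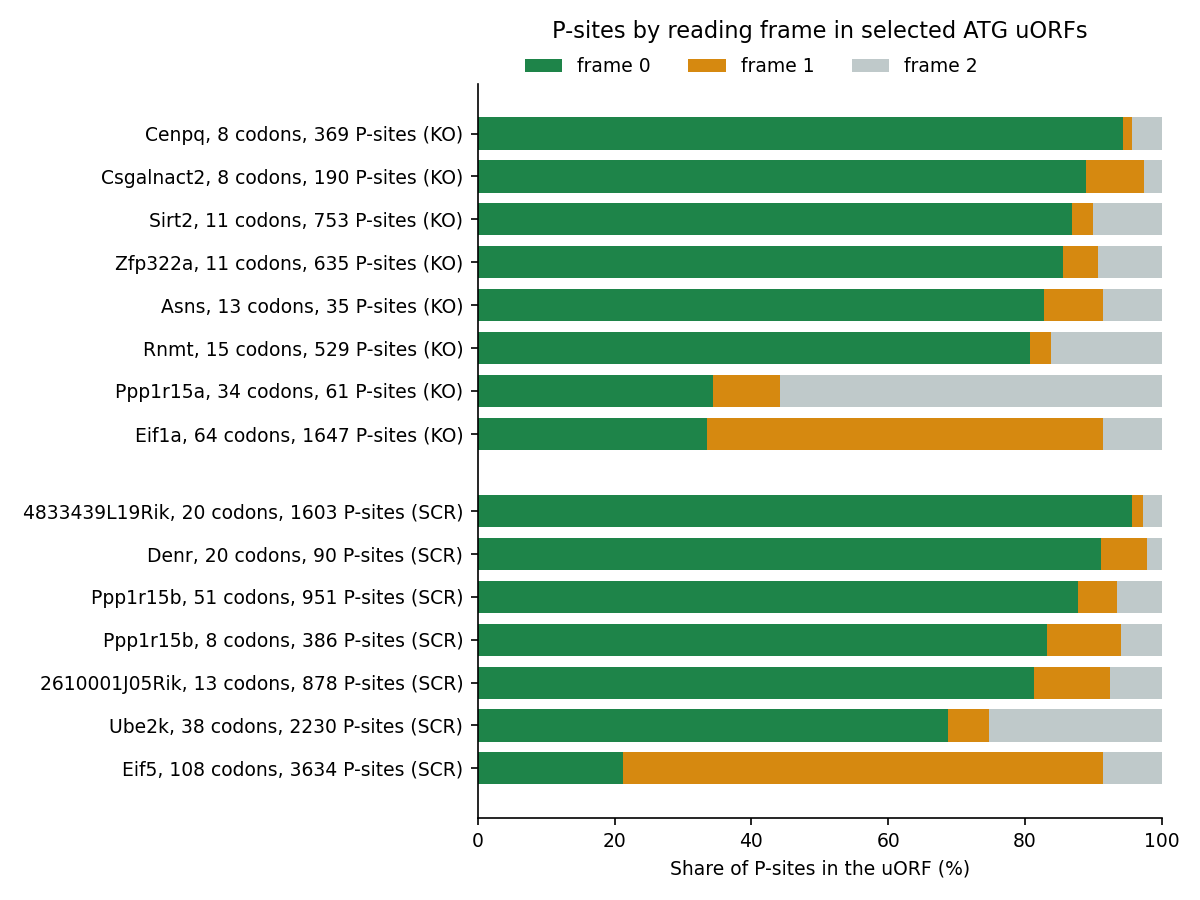
Share of P-sites in reading frames 0, 1 and 2 (percent, summed over all libraries) in selected ATG uORFs, with the KO-larger list above and the SCR-larger list below; labels give the host, the length and the number of P-sites. Frame 0 holds over 60% in all but Ppp1r15a and Eif1a in the upper block and Eif5 in the lower, where another frame is the larger.

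In the KO-larger list the highest frame 0 RPKM (P-sites scaled by frame length and by the total, a scale that divides by length and so sets few P-sites in a short frame high) belonged to the 11-codon frame of Sirt2, an NAD-dependent deacetylase gene, with 231 RPKM and 654 of 753 P-sites in frame (86.9%). It lies at chr7:28466277-28471255 on the + strand in the files' coordinates, for which the submitters' processing notes name GRCm39. Zfp322a, a zinc-finger protein gene, followed with 192 RPKM over 11 codons. Cenpq had 169 RPKM over 8 codons, with 348 of 369 P-sites in frame (94.3%). Rnmt, which makes the methyltransferase of the mRNA cap, had 111 RPKM over 15 codons. Csgalnact2, an enzyme of chondroitin sulfate synthesis, had 82.1 RPKM over 8 codons. The longest KO-larger frames, of 128 codons in the small GTPase gene Rap2b and 100 codons in the predicted gene Gm45902, had 0.395 and 18.8 RPKM.

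In the SCR-larger list the unnamed gene 4833439L19Rik led with 298 RPKM over 20 codons, and 1534 of its 1603 P-sites were in frame (95.7%, interval 94.6 to 96.6). This uORF lies at chr13:54713030-54713092 on the - strand. A second unnamed gene, 2610001J05Rik, had 213 RPKM over 13 codons. Ube2k, a ubiquitin-conjugating enzyme gene, had 157 RPKM over 38 codons, with 1534 of 2230 P-sites in frame. Ppp1r15b (CReP, the constitutive subunit of the eIF2 phosphatase) holds a pair of listed uORFs, one of 8 codons with 156 RPKM and one of 51 codons with 834 of 951 P-sites in frame. Both stood in the SCR-larger list. Scaf11, a splicing-related gene, had 139 RPKM over 8 codons. The longest SCR-larger frame, of 156 codons in the Rab escort gene Chml, had 1.05 RPKM. The median over all members was 6.09 RPKM in the KO-larger list and 6.66 in the SCR-larger list.

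Some members begin at a coding start used by another transcript. In 21 of 598 uORFs (5 in the KO-larger and 16 in the SCR-larger list) the start codon is that of an annotated coding frame of the same gene in the dictionary. Sirt2 is one of them: its uORF shares 16 bases in frame with the annotated frame, starting at the same ATG, and another 17 bases, its second exon, out of frame. All 33 bases of it therefore lie in annotated coding sequence. Atp5c1, a subunit gene of ATP synthase whose start is shown above, shares 56 bases in frame. Others are Cdk11b, Gpr19, Chpf, Sting1 and Mib1. For these the P-sites of the uORF and of the coding frame cannot be told apart over the shared bases. In contrast, 488 uORFs (81.6%) share no base with any other frame of the same gene, and their median length was 18 codons in the KO-larger list and 23 in the SCR-larger list.

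Most hosts carried a single listed ATG uORF: 509 had 1, 38 had 2 and 4 had at least 3. Tlcd4 had the most, with 4. In 14 hosts the uORFs were divided between the lists, 15 in the KO-larger and 17 in the SCR-larger list, with median lengths of 18 and 36 codons. In 12 of these hosts a single transcript carries uORFs of both lists, and the KO-larger frame was the upstream one in 5 and the downstream one in 7. Cdkn2c, which makes the CDK inhibitor p18, has an 18-codon frame with 76 P-sites in frame in the KO-larger list and, upstream of it, a 19-codon frame with 18 in the SCR-larger list. Ubtf, which makes the rRNA transcription factor UBF, has an 11-codon frame with 42 in the KO-larger list and, upstream, a 21-codon frame with 17 in the SCR-larger list. Listed near-cognate uORFs stood in 34 of the 551 hosts.

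Before the hosts are compared, some facts of the libraries bear on them. Input RNA libraries had 38968000 to 48692578 counts. Footprint libraries had 14555963 and 21366608 counts in KO cells, against 28059683 and 31301806 in SCR cells, so footprint depth moved with genotype and cannot be told apart from it. Mettl5 RNA was 6.46 and 6.21 CPM (library-scaled counts, by TMM) in KO libraries, against 9.19 and 9.44 CPM in SCR libraries (log2 fold change -0.56, adjusted p = 0.0284, edgeR). Mettl5 footprints were 10.7 and 11.5 CPM in KO and 15.4 and 14.2 CPM in SCR libraries (-0.35, adjusted p = 0.112, edgeR), which did not pass the threshold. All 10 melanocyte lineage markers were above 1 CPM in every input RNA library. Of 6 blood markers, 4 (Ptprc, Cd3e and Itgam among them) had 0 counts in all, and the 6 fibroblast and endothelial markers summed to 19.5 and 20.1 CPM in KO and 20.4 and 16.9 CPM in SCR libraries.

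Hosts of ATG uORFs had a lower median translational efficiency than genes without uORFs. Translational efficiency is given here as footprint CPM over mean input RNA CPM of the same genotype, for genes with at least 1 CPM of RNA in each library. Its median over 542 hosts was 0.418 and 0.446 in the KO libraries, and 0.459 and 0.459 in the SCR libraries. Over 7177 genes with a translated coding frame and no uORF in the dictionary it was 0.516 and 0.532 in KO, and 0.559 and 0.561 in SCR. The median of the hosts lay below that of genes without a uORF in all 4 libraries. For the 42 hosts with more than 1 ATG uORF it was lower still, 0.292 and 0.299 in KO and 0.333 and 0.325 in SCR. Hosts of near-cognate uORFs stood close to genes without one, at 0.511 and 0.540 in KO and 0.552 and 0.557 in SCR. The interquartile ranges of these gene groups overlap widely and the difference was not tested. The groups also differ in RNA level, with a median of 60.6 CPM in KO and 59.5 in SCR cells in the hosts and 35.5 and 34.3 CPM in genes without a uORF, and the part of RNA level was not tested.

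**Figure D3:**
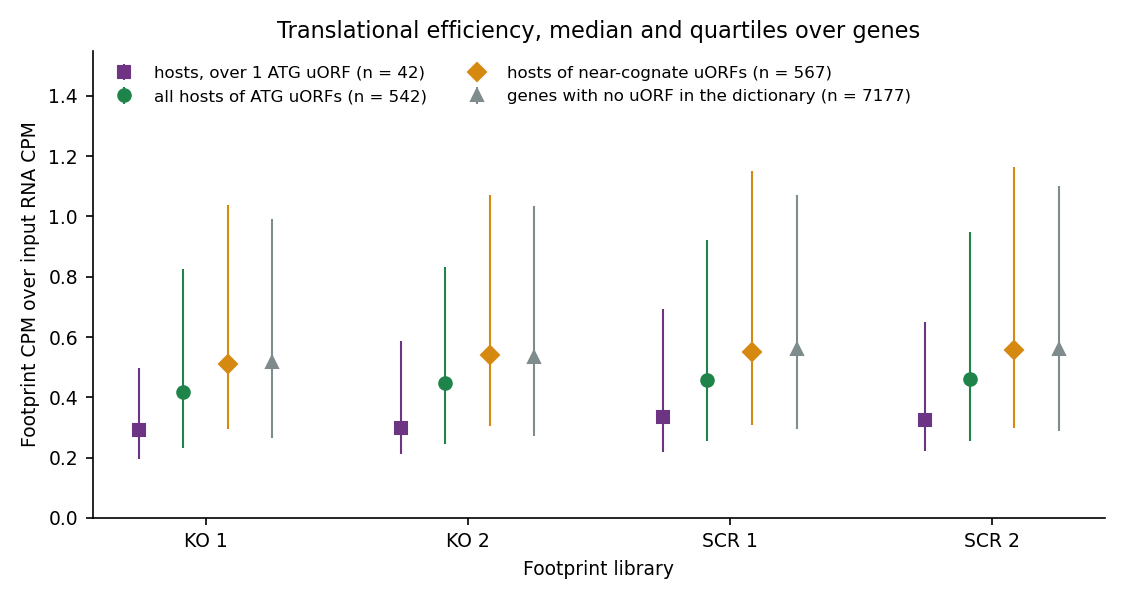
Translational efficiency (footprint CPM over input RNA CPM) in each footprint library, KO left and SCR right; points are medians over genes and bars run between the quartiles. In every library hosts with more than 1 ATG uORF are lowest (0.292 to 0.333) and all hosts of ATG uORFs lie below genes with no uORF.

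Footprint counts of a host cover the whole gene, uORF and coding sequence together. Set against these counts, the uORF P-sites, taken over all 3 frames, were a small share. The median was 3.04% of the host's footprints in the KO-larger list (206 hosts) and 2.45% in the SCR-larger list (355 hosts). Of 547 hosts, 80 had more than 10%. P-sites of other frames that overlap a uORF are counted too. Eif1a had 46.5%, from 1647 P-sites of which 551 were in frame 0. The share was 58.3% for 4833439L19Rik (1603 P-sites, 2749 footprint counts) and 48.1% for Zfp322a. In 3 hosts (Gm45902, RP23-199B10.2 and Zfp708) the uORF P-sites exceeded the footprint counts of the gene, so the deposited tables assign footprints to them differently, and the frame of RP23-199B10.2 is listed under Mkks too. These 3 were singled out after their values were seen.

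In input RNA, 83 of 549 hosts tested rose in KO cells and 59 fell (edgeR quasi-likelihood test, Benjamini-Hochberg adjusted p below 0.05 over 20025 genes). Of all genes tested, 9.56% rose and 7.21% fell, 16.8% together. Of genes with a translated coding frame, 24.9% were called, close to the 25.9% of hosts. The median log2 fold change was 0.03 for hosts of the KO-larger list, -0.02 for those of the SCR-larger list and -0.01 for all genes. Without SCR replicate 1 the counts were 29 and 15, and without SCR replicate 2 they were 36 and 22. The directions below are KO relative to SCR.

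Lsm4, which makes a subunit of the ring that binds U6 snRNA, had 124 and 98.5 CPM in KO and 58.9 and 59.9 CPM in SCR libraries (log2 fold change 0.90, SE 0.10, adjusted p = 0.00404, edgeR). Trmt112, the partner of METTL5 itself, had 28 and 24.2 CPM in KO and 14.9 and 15.1 CPM in SCR (0.80, SE 0.10, adjusted p = 0.00527). Its KO libraries lay above both SCR libraries. Gpr37, an orphan receptor gene, had 34.8 and 33.7 CPM in KO and 19.8 and 19.2 CPM in SCR (0.81). Ifrd2, whose product binds inactive ribosomes, had 120 and 104 CPM in KO and 66.9 and 70.7 CPM in SCR (0.70). Among the other rises were Trmt61a, the catalytic subunit gene of a tRNA methyltransferase (0.62), Mospd3 (0.74), and the lowly expressed Bdnf (1.45, adjusted p = 0.0495) and Esr1 (0.83, adjusted p = 0.0367). The call for Bdnf was lost without KO replicate 1, KO replicate 2 or SCR replicate 1, and that for Esr1 without any single library.

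Insig2, which holds the sterol sensor SCAP in the endoplasmic reticulum, had 53 and 48.7 CPM in KO and 84.4 and 87.8 CPM in SCR libraries (fell by 0.76 on the log2 scale, SE 0.06, adjusted p = 0.00141, edgeR). Tlcd4, the host of the most ATG uORFs, had 74.8 and 71.6 CPM in KO and 120 and 116 CPM in SCR (log2 fold change -0.69). Both groups of libraries were apart for each gene. Asah2, a ceramidase gene, had 7.20 and 7.72 CPM in KO and 13.6 and 14.3 CPM in SCR (-0.90). Other falls were Mfsd13a (-0.87), Als2cl (-0.79), Tgfb3 (-0.64) and the sterol reductase gene Tm7sf2 (-0.60). Without SCR replicate 1 the calls for Mfsd13a, Als2cl, Tgfb3 and Tm7sf2 were lost. That for Tm7sf2 was also lost with DESeq2, with no filter, and without KO replicate 1 or SCR replicate 2.

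In footprints, 3 of 548 hosts rose and 13 fell (edgeR, adjusted over 16878 genes), where 0.51% and 1.78% of all genes tested did, 2.29% together. Of genes with a translated coding frame, 0.58% rose and 2.41% fell, close to the 0.55% and 2.37% of hosts. The 3 rises were hosts of the KO-larger list and the 13 falls were hosts of the SCR-larger list. Since the lists may rest on these same libraries, this is no independent support for either. The median log2 fold change was 0.05 for 207 hosts of the KO-larger list, with 122 above 0, and -0.11 for 355 hosts of the SCR-larger list, with 129 above 0, against 0.01 over all genes. Over genes with a translated coding frame it was -0.02. Without a filter on low counts the median of the KO-larger list was -0.02. Most calls were lost when a library was left out: leaving out footprint KO replicate 1 gave 0 rises and 1 fall, KO replicate 2 gave 1 and 1, SCR replicate 1 gave 1 and 1, and SCR replicate 2 gave 0 and 0. DESeq2 called 5 rises and 59 falls. With hosts of both lists counted in each, these were 4 and 9 in the KO-larger list and 1 and 51 in the SCR-larger list. With DESeq2, then, more hosts of the KO-larger list fell than rose.

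Slc39a7 had 59.1 and 38.1 footprint CPM in KO and 227 and 239 CPM in SCR libraries (log2 fold change -2.20, SE 0.23, adjusted p = 0.0319, edgeR). Its RNA was 66.4 and 66.2 CPM in KO and 68.6 and 59.3 CPM in SCR, groups that overlap. Its 39-codon uORF had 87 of 114 P-sites in frame. The neighbouring genes Rxrb and Ring1 had footprint log2 fold changes of 0.17 (adjusted p = 0.272, edgeR) and -0.09 (adjusted p = 0.683). The Slc39a7 call was lost without footprint SCR replicate 1 or SCR replicate 2, at log2 fold changes of -2.56 to -1.91 over the 4 libraries left out in turn.

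Tmem94, a membrane protein gene with an 11-codon uORF, had 43.8 and 46.8 footprint CPM in KO and 75.9 and 75.1 CPM in SCR libraries (log2 fold change -0.67, SE 0.06, adjusted p = 0.0276, edgeR), at an RNA log2 fold change of -0.04. Its KO footprint libraries lay below both SCR libraries. Insig2 footprints were 64.2 and 61.5 CPM in KO and 101 and 107 CPM in SCR (-0.65), close to its RNA log2 fold change of -0.76. Other falls named by rule were the adenylyl cyclase gene Adcy3 (-0.61), Fam3a (-0.59) and the oxysterol hydroxylase gene Cyp39a1 (-0.58).

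Samd9l, an interferon-inducible antiviral gene, had 12.1 and 15.1 footprint CPM in KO and 6.53 and 6.82 CPM in SCR libraries (log2 fold change 1.09, SE 0.13, adjusted p = 0.036, edgeR), with RNA at 13 and 14.1 CPM in KO and 16 and 16.3 CPM in SCR. Footprints were higher and RNA lower in both KO libraries. Brme1, a meiotic recombination gene, had 8.51 and 9 CPM in KO and 5.66 and 5.28 CPM in SCR (0.75, adjusted p = 0.0486), and DESeq2 did not call it. The third rise was the clone-named gene RP23-199B10.2, named here after its values were seen, with 167 and 132 footprint counts in KO libraries and 0 and 0 in SCR libraries. Its uORF, the frame that is also listed under Mkks, had 437 P-sites, more than these counts, so no fold change is given. Mkks, a chaperonin-like gene, had 81 and 243 footprint counts in KO and 426 and 486 in SCR libraries (log2 fold change -0.95, adjusted p = 0.173, edgeR), so the 2 hosts of this frame had values in opposite directions. Over the bases they share, reads of these genes cannot be told apart.

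**Figure D4:**
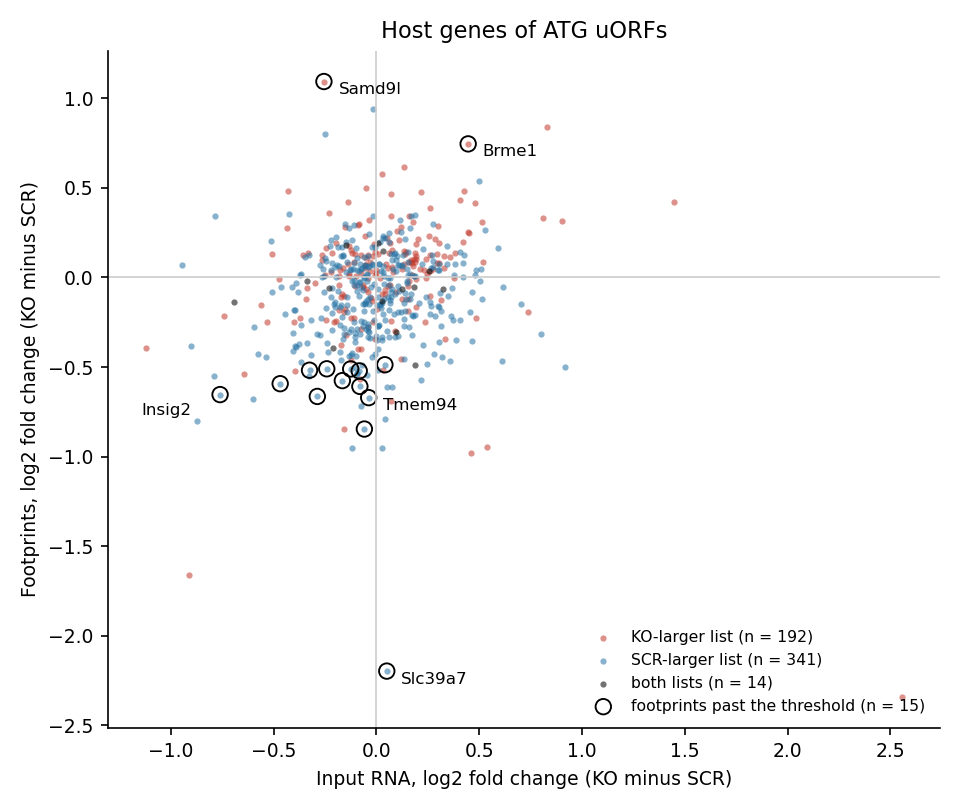
Log2 fold change (KO minus SCR) of footprints against that of input RNA for hosts of ATG uORFs, coloured by list, with hosts past the footprint threshold circled (n = 15); RP23-199B10.2, with 0 SCR footprint counts, is not drawn. Slc39a7 lies at -2.20 in footprints and 0.05 in RNA, and the circled falls are all of the SCR-larger list.

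A change in translational efficiency was tested as a genotype effect that differs between footprints and RNA, in 1 fit of all 8 libraries, so it shares libraries with both comparisons above. Of 549 hosts, 9 rose and 42 fell (edgeR, adjusted over 23211 genes), where 0.788% and 3.4% of all genes tested did, 4.19% together. Among hosts of the KO-larger list 5 of 208 rose and 7 fell, and among those of the SCR-larger list 5 of 355 rose and 36 fell (10.1%), with hosts of both lists counted in each. Of 11931 genes with a translated coding frame, 5.65% fell. Among hosts of near-cognate uORFs, 39 of 423 fell in the SCR-larger list (9.22%) and 5 of 165 in the KO-larger list (3.03%). Since the lists may rest on these same libraries, the difference between them is no independent support for either. The median log2 fold change was -0.05 in the KO-larger list, -0.15 in the SCR-larger list and -0.05 over all genes. Without footprint KO replicate 2 these medians were -0.17, -0.25 and -0.14, and DESeq2 gave -0.03, -0.13 and 0.05. Without input RNA KO replicate 1, SCR replicate 1 or SCR replicate 2 no host was called in either direction. With 1 of the other 5 libraries left out, 29 to 59 fell and 3 to 5 rose.

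Slc39a7 had a ratio of 0.891 and 0.574 in KO and 3.55 and 3.74 in SCR libraries (log2 fold change -2.29, SE 0.25, adjusted p = 0.0205, edgeR). Ppp1r15b, with its pair of SCR-larger uORFs, had 0.382 and 0.365 in KO and 0.703 and 0.629 in SCR (-0.81, SE 0.11, adjusted p = 0.0205). The KO ratios were below both SCR ratios in each. In Ppp1r15b RNA was higher in KO (log2 fold change 0.32, adjusted p = 0.0156), while the footprint value of -0.45 did not pass the threshold (adjusted p = 0.0677). The same arrangement, RNA past the threshold upward and footprints not, held for Ifrd2, with 0.112 and 0.104 in KO and 0.205 and 0.203 in SCR (-0.89). It also held for Trmt112, with 0.341 and 0.328 in KO and 0.616 and 0.904 in SCR (-1.16, adjusted p = 0.0498). These 2 values come with RNA log2 fold changes of 0.70 and 0.80 and footprint values of -0.15 and -0.32. The Trmt112 call was also lost with DESeq2's size factors and without either KO footprint library, with an adjusted p of up to 0.18 over its alternatives (edgeR).

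Mt2, a metallothionein gene whose 18-codon uORF stood in the KO-larger list with 15 of 39 P-sites in frame, had ratios of 0.0794 and 0.139 in KO and 0.294 and 0.330 in SCR (log2 fold change -1.46, adjusted p = 0.0351, edgeR). The mitochondrial import gene Timm13 (-1.12), Chpf, an enzyme of chondroitin sulfate synthesis (-0.87), and the receptor kinase gene Tyro3 (-0.86) fell as well. Samd9l had the largest of the named rises, with ratios of 0.897 and 1.11 in KO and 0.405 and 0.423 in SCR (1.31, adjusted p = 0.0205). The other named rises were smaller: the transcription factor gene Tcf4 (0.67), Tlcd4 (0.52), Asah2 (0.48), Zfand6 (0.43), Peak1 (0.42), the kinase gene Rock2 (0.41) and Cald1, which makes caldesmon (0.39). In Tlcd4, Asah2, Tcf4, Zfand6, Peak1 and Cald1 the RNA log2 fold change was negative and past the threshold. Of these 7, only Tlcd4 held a call in more than 5 of the 12 alternative settings.

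**Figure D5:**
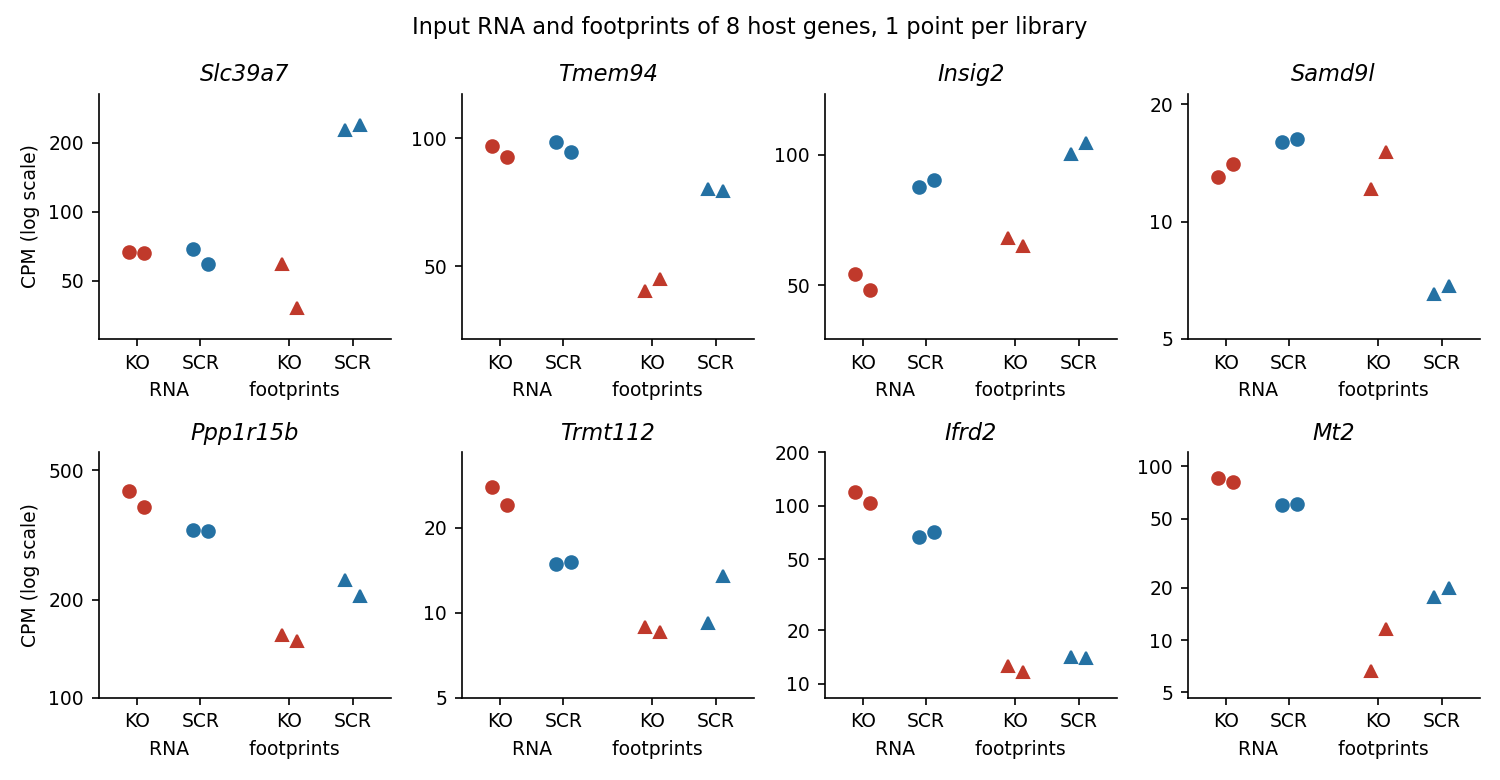
Input RNA (circles) and footprint (triangles) CPM on a log scale for 8 host genes, 1 point per library, KO left (red) and SCR right (blue). The RNA points of Slc39a7 and Tmem94 overlap between genotypes while their footprints are apart, Insig2 is lower in KO in both assays, and Ppp1r15b, Trmt112, Ifrd2 and Mt2 have higher RNA in KO without higher footprints.

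Genes known for uORF control were looked at as gene lists. All lists were chosen with earlier results of these data known, so their counts are a description. Of 32 genes with a known uORF, 4 host a listed ATG uORF, among them Eif5, Ppp1r15a and Ppp1r15b. In translational efficiency 7 of 32 tested fell and none rose, with a median log2 fold change of -0.25, against 3.4% falls and a median of -0.05 over all genes. Over genes with a translated coding frame 5.65% fell and the median was -0.09. In footprints none of the 32 passed the threshold, where 2.29% of all genes tested did. In RNA 8 of 30 rose and 4 fell. Over all genes 9.56% rose and 7.21% fell, and over genes with a translated coding frame 14.2% and 10.7%. The counts of each list come from the fit of all libraries only. Of the 4 hosts Ppp1r15b passed the threshold in translational efficiency. Eif5 had ratios of 0.336 and 0.340 in KO and 0.361 and 0.381 in SCR (-0.11, adjusted p = 0.562, edgeR), and its RNA rose by 0.23 (adjusted p = 0.0222). Ppp1r15a had 0.399 and 0.310 in KO and 0.522 and 0.427 in SCR (-0.40, adjusted p = 0.42).

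Of 33 genes of the integrated stress response, 6 fell in translational efficiency and none rose (median -0.27), against 3.4% falls over all genes and 5.65% over genes with a translated coding frame. In RNA 12 of 32 rose and 1 fell, against 9.56% and 7.21% of all genes and 14.2% and 10.7% of genes with a translated coding frame. In footprints 1 of 33 fell and none rose, where 1.78% and 0.51% of all genes tested did. The hosts among the 33 genes besides the phosphatase subunits are Asns, Slc7a11 and Pycr1. Slc7a11, the cystine transporter gene, has a 35-codon uORF in the KO-larger list, and its ratio was 5.32 and 5.07 in KO and 8.11 and 9.29 in SCR (-0.72, adjusted p = 0.0234, edgeR). The asparagine synthetase gene Asns had 2.52 and 2.65 in KO and 3.02 and 3.41 in SCR (-0.29, adjusted p = 0.172), and the proline synthesis gene Pycr1 8.56 and 10.5 in KO and 10.3 and 10.7 in SCR (-0.10). Their uORFs were sparsely covered, with 18, 29 and 59 P-sites in frame in Slc7a11, Asns and Pycr1. Atf4, Atf5, Ddit3, Ppp1r15a, Ppp1r15b, Sesn2 and Cebpb stand both in this list and in that of known uORFs. The results of these lists are therefore not separate.

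Of 38 factors of scanning, start selection and reinitiation, 12 rose in RNA and none fell. Over all genes 9.56% rose and 7.21% fell, and over genes with a translated coding frame 14.2% and 10.7%. In footprints and translational efficiency none of the 38 passed the threshold, where 2.29% and 4.19% of all genes tested did. The hosts among the 38 factors are Eif5 and Denr, whose product helps ribosomes reinitiate after short uORFs. The 20-codon uORF of Denr had 82 of 90 P-sites in frame. Denr RNA was 45.2 and 40.9 CPM in KO and 34.8 and 36.2 CPM in SCR (0.28, adjusted p = 0.0408, edgeR). This call was lost with DESeq2, with no filter, and without input RNA KO replicate 1, SCR replicate 1 or SCR replicate 2. In the MAPK and PI3K list, of 31 genes, 4 are hosts, among them Spred1 and Pik3r1, and none of the 4 passed in footprints or translational efficiency. Cdk4 is the only host in the cell cycle list, with 9 of 9 P-sites in frame in a 10-codon uORF. The lists of nonsense-mediated decay factors and of class I antigen presentation genes, 20 genes each, held no host.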

How the data were processed

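Input RNA and ribosome footprints were measured in KO and SCR B16-F10 cells. The authors deposited whole numbers per gene and library that cover the whole gene, here read to be expected counts of StringTie, a tool the processing notes list. Whether counting used strand is not stated. The submitters' processing notes name STAR 2.7.10a, StringTie 2.1.7 and GRCm39, with no role. The deposited lists give, per reading frame, a P-site count per frame, the RPKM of frame 0 and an adjusted p-value for translation, each made by the authors from all libraries together. Which program called the frames is not given in the sources. The authors' deposited table of translational efficiency holds a ratio for either genotype, a log2 change and a p-value. It served only as a check: its ratios and those computed from the counts correlated at 1.00 over 10261 genes.

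From the counts, edgeR 4.0.16 (R 4.3.3) was fitted on all genes with TMM scaling, filterByExpr and the quasi-likelihood test, with Benjamini-Hochberg adjustment and a threshold of 0.05. Translational efficiency was the genotype-by-assay term. The fits were tested on simulated data. DESeq2 1.42.0, its size factors, no filter, each library left out and a replicate block were alternatives. Intervals of medians and shares are at 95% and cover counting or the spread over uORFs only. Start contexts came from matching translated frames, at least 7 residues, to RefSeq promoter windows, and coordinates of the 2 builds were not mixed.

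The uORFs and gene lists were chosen with earlier results of these data known. Named uORFs are, per list, the 5 of highest RPKM, the 3 of most P-sites, the 2 longest and the 2 shortest. Named hosts are, per comparison, the 8 largest rises and the 8 largest falls past the threshold, with KO and SCR libraries apart, a mean of at least 10 counts and no predicted-gene name, and the hosts in each gene list. Others named for a feature of their sequence or frame were picked after their values were seen. Some genes that meet these rules are not reported here.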

Additional observations from a re-analysis of the deposited data

How the results depend on the processing

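With DESeq2's size factors in place of TMM every count of hosts stayed within 1.5 times. Without a filter on low counts 38 hosts rose and 23 fell in input RNA (83 and 59 with it), 40 fell in footprints (13 with it) and 2 rose in translational efficiency (9 with it). DESeq2 called 5 rises and 59 falls in footprints, and 21 rises and 78 falls in translational efficiency (42 falls with edgeR). Leaving out each library in turn gave 29 to 107 rises and 15 to 73 falls in input RNA, 0 to 1 rises and 0 to 1 falls in footprints, and 0 to 5 rises and 0 to 59 falls in translational efficiency. Replicate numbers give no known pairing, and the correlation of deviations between same-numbered libraries was 0.12 in input RNA and 0.0032 in footprints. With the number as a replicate block, 86 hosts rose and 62 fell in input RNA, and 0 rose and 0 fell in footprints and in translational efficiency. Among uORFs with at least 50 P-sites in frame 0, the host median was -0.034 in input RNA for the SCR-larger list and -0.10 in translational efficiency for the KO-larger list, and the median share in frame was 79.6%. Summed over all uORFs that share was 71.7%. No host named by rule with a call changed direction under these alternatives. Among hosts of the KO-larger list, footprints gave 3 rises and 0 falls with edgeR, and 4 and 9 with DESeq2. Their footprint median was 0.05 with the filter and -0.02 without it. The cause of the changes was not tested. KO footprint libraries were shallower than SCR ones, and P-sites pooled over libraries allow no test of any uORF between genotypes.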

Other observations

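Hosts were also grouped by the length of their uORF. In translational efficiency, 11 of 243 hosts with uORFs of 8 to 20 codons fell (4.53%), 23 of 232 with 21 to 50 codons (9.91%) and 8 of 74 with more than 50 codons (10.8%). Over all genes tested 3.4% fell, and over genes with a translated coding frame 5.65%, so the shortest class lies near these shares. The difference between classes was not tested. Length went with list: frames were shorter in the KO-larger list, whose hosts fell less often (3.37%) than those of the SCR-larger list (10.1%). The part of list membership was not tested. A host with several uORFs was classed by the one of most P-sites in frame 0. Among 80 hosts whose uORF P-sites of all 3 frames exceed 10% of their footprints, 3 fell (3.75%) and 1 rose. These are near the 3.4% and 0.788% over all genes.

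The motif ANATGGC (reverse complement GCCATNT), which overlaps the start codon itself, was looked for after the sequences were seen. It stood at the start codon of 14 of 88 matched uORFs (15.9%), among them Mrpl51, Snx17, Tmem94 and Srebf2, against 2.30% of 116488 ATGs in the RefSeq windows. The form GCCATGT stood at 3 of 87 distinct starts (3.45%), in Wasl, Epn2 and Slc39a7, against 0.525% of those ATGs. On either strand, 15.1% of 32851 windows hold the motif. The window ATGs include those before the gene start here too. These matches are a description and do not show that a factor binds there.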
